A study of Mus musculus with 10 samples.

Results

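The immediate early response genes are genes whose transcripts appear within minutes of a stimulus without new protein synthesis. The 10 genes described here are Hbegf, Fos, Fosb, Jun, Junb, Egr1, Atf3, Ier2, Nr4a1 and Myc, taken by symbol from the 43629 genes of each count table. Hbegf was chosen by a measured value, the difference between genotypes in immunoprecipitated over total RNA, so its values are given as a description with no test. The study addressed the role of IMP2, which is encoded by Igf2bp2 and binds mRNA, in adult skeletal muscle of the mouse, with an immunoprecipitation to recover the transcripts bound to it. RNA recovered by this immunoprecipitation (IP), with a home-made antibody to IMP2, was sequenced from knockout muscle (KO, n = 2) and wild-type muscle (WT, n = 2), and total RNA from KO muscle (n = 3) and WT muscle (n = 3). All mice were given as C57BL/6 males aged 6 weeks that had been on a high-fat diet for 2 weeks. The KO mice are labelled as lacking IMP2, called a null by the sample labels and a deletion confined to muscle by the series text, and the WT mice carried no stated alteration. The driver of the deletion and the part of the gene removed are not given in the sources used here. Nothing in the labels ties each library to its own animal; the p-values therefore reflect only the variation among these libraries, some of which may be technical.

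In resting tissue most immediate early genes are transcribed at a low level. Signals that reach MAP kinases, calcium or cAMP activate serum response factor, its ETS-domain partners and CREB, which are already bound at the promoters. Many of the transcripts carry AU-rich elements in the 3' untranslated region (UTR) and are degraded quickly, and in skeletal muscle contraction, stretch and injury are known inducers. Fos, Fosb, Jun and Junb encode subunits of the transcription factor AP-1. Egr1 encodes a zinc-finger transcription factor, Atf3 a stress-induced factor of the ATF/CREB family, Nr4a1 an orphan nuclear receptor and Myc a basic helix-loop-helix factor. Ier2 encodes a small nuclear protein, and Hbegf a membrane-anchored ligand of the EGF receptor that is released by shedding.

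The promoters of Fos with Fosb, and of Junb with Nr4a1, are shown because these were the most correlated pairs over the total RNA libraries for which both promoters were searched. Sequences are from RefSeq on GRCm38.p6 and run from 250 bases before to 50 bases after the start site. Capitals mark TGACG or its reverse complement CGTCA, which is the half-site of the cAMP response element, and TATAAA.
Fos (chr12:85473640-85473939, plus strand): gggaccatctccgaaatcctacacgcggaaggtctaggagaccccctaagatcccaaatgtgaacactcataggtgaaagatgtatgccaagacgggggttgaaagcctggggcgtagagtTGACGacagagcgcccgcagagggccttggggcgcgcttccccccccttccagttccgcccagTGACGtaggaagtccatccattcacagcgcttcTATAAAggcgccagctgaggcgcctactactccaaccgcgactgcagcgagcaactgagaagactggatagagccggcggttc
Fosb (chr7:19309996-19310295, minus strand): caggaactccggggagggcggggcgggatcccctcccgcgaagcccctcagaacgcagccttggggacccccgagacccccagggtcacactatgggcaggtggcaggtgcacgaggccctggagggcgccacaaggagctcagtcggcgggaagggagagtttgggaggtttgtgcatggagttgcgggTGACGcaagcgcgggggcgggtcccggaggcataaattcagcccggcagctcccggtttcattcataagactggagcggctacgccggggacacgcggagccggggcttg
Junb (chr8:84978699-84978998, minus strand): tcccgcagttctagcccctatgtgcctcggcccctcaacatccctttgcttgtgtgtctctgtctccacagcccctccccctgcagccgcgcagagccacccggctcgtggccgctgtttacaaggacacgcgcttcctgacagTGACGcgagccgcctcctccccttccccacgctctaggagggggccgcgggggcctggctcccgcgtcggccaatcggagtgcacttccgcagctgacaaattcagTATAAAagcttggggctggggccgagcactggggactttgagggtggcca
Nr4a1 (chr15:101266596-101266895, plus strand): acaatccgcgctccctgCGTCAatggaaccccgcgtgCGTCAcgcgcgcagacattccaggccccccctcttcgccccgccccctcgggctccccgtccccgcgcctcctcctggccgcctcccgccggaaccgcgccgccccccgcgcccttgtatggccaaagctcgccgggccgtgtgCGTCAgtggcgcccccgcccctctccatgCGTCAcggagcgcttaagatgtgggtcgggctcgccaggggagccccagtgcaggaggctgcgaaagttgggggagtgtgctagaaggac
Promoter sequences were searched for 6 of the 10 genes, namely Fos, Fosb, Jun, Junb, Atf3 and Nr4a1. Those of Hbegf, Egr1, Ier2 and Myc were not searched. The half-site, searched on both strands, stood in 5 of these 6, all but Jun, against 20.8% of the 32851 promoters in the table. Counted from the start site, its first base lay at -129 and -66 in Fos, at -60 in Fosb, at -106 in Junb and at -7 in Atf3. Nr4a1 held 4 copies, at -233, -213, -69 and -40. TATAAA stood at -33 in Fos and at 1 in Junb, against 13.6% of all promoters. These positions count from the RefSeq start sites. The GENCODE M21 model of Junb begins at base 84978718, further downstream. Those of Atf3 and Nr4a1 begin upstream and outside the windows searched, at bases 191218039 and 101254269. Positions in Junb, Atf3 and Nr4a1 therefore depend on the start site taken. The full cAMP response element TGACGTCA, which contains the half-site, stood in 0 of the 6 windows, against 1.79% of all promoters, and the AP-1 motif TGANTCA in 0, against 7.81%. The serum response element core, searched by its CArG consensus, stood in 0, against 1.63%. The ETS motif CCGGAA stood in 1, Nr4a1, against 14.9%, and the EGR motif GCGGGGGCG in 2, Fosb and Nr4a1, against 2.91%. These matches are a description of the letters and not of bound sites. Elements more than 250 bases before the start site were not searched, so a count of 0 holds for these windows only.

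AU-rich sites of the 3' UTRs are shown because the 10 genes differ in them and the choice of genes did not use them. Each stretch of 29 bases is from GENCODE M21 on GRCm38, from the longest coding transcript, with ATTTA or, in Fos, the nonamer TTATTTATT in capitals.
Fos (chr12:85477103-85477131, plus strand): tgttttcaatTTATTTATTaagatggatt
Jun (chr4:95049550-95049578, minus strand): tccagaaaggatATTTAagaaaatacaat
Nr4a1 (chr15:101274690-101274718, plus strand): tgacagattctgATTTAtatttgtgtatt
Myc (chr15:61990135-61990163, plus strand): taacagatttgtATTTAattgttttttta
The 3' UTRs held 4 copies of ATTTA in Hbegf, Fos and Jun, 3 in Atf3 and Nr4a1, 2 in Junb, Egr1 and Myc, 1 in Fosb and 0 in Ier2. At least 1 copy was present in 69.2% of the 13079 genes with a 3' UTR that were tested in total RNA. The nonamer was found in Fos alone of the 10 genes, and in 7.86% of those 13079 genes. Jun, Junb and Ier2 have 1 exon in these transcripts, as do 2.28% of those genes. The Jun locus overlaps Junos, Junb overlaps Prdx2 and Atf3 overlaps Gm24748, each on the other strand, and without a stated strand setting their reads may not be separated.

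Library depth differed widely. IP libraries held 917462 and 4037480 gene counts in KO and 2159115 and 2547124 in WT. Total RNA libraries held 9691580 to 10739792 gene counts in KO and 12299030 to 14809788 in WT. Fast-fibre markers (9 genes, among them Acta1, Ckm and Myh4) summed to 82105 to 319689 CPM (counts relative to the scaled library size) over all 10 libraries. None of the 9 was at 0, which matches the tissue label. Igf2bp2 was low throughout, with 9 and 25 counts in KO IP against 28 and 4 in WT IP, and its groups overlapped in total RNA, with 2.52, 1.88 and 2.47 CPM in KO against 2.51, 2.86 and 3.35 CPM in WT. The log2 difference in total RNA was -0.36 ± 0.28 (SE, edgeR adjusted p = 0.90), so these counts of the targeted gene do not separate the genotypes, and the part removed, on which this check depends, is not known here. A pair of total RNA libraries stood apart in markers of other tissues. Ins2, the insulin gene, reached 1397 CPM in KO total library 1 and 0.772 CPM or less in the rest of the total RNA libraries. It was also present in every IP library, at 211 and 87.1 CPM in KO and 24.0 and 205 CPM in WT. Ucp1, a brown-adipocyte gene, reached 225 CPM in WT total library 2 and 3.70 CPM or less in the rest of the total RNA libraries. In IP it had 42.3 and 20.1 CPM in KO and 7.15 and 68.6 CPM in WT. Xist, a gene expressed in females, had 46 counts (5.53 CPM) in KO total library 1. It had 0.209 CPM or less in the rest of the total RNA libraries. In IP, Xist had 1 and 2 counts in KO and 0 and 4 counts in WT. The label of male mice was not tested further for KO total library 1. The levels above and all levels below are CPM scaled with TMM factors computed over the 10 libraries, except where library size alone is named.

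Per kilobase of exons, the 10 genes spanned a wide range of levels in total RNA. Nr4a1 was the highest, at a mean of 39.2 CPM per kilobase over the 6 total RNA libraries, which was above 93.6% of 13118 tested genes. Jun followed at 23.3 CPM per kilobase, above 89.2% of those genes. Hbegf had 9.16 CPM per kilobase and Ier2 had 6.73. The ranges over the 6 libraries did not overlap between Nr4a1 (34.8 to 44.8), Jun (18.7 to 27.8) and Hbegf (6.22 to 13.9). Hbegf overlapped its neighbour Ier2, at 5.45 to 7.71. These lengths are unions of all exons, 4834 bases in Hbegf, whose longest coding transcript has 2375. Jun has 3189 bases by both measures. Whether Hbegf overlaps Jun or Ier2 therefore depends on the length taken. Junb (mean 4.60), Fos (3.40), Egr1 (3.39), Atf3 (3.14) and Myc (2.33) overlapped their neighbours in this order and lay above 39.4% to 57.4% of the genes. Fosb was the lowest, at a mean of 0.327 CPM per kilobase, above 5.12% of genes, and only its highest library, KO total library 1 at 1.37, reached the lowest Myc library at 1.36.

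**Figure D1:**
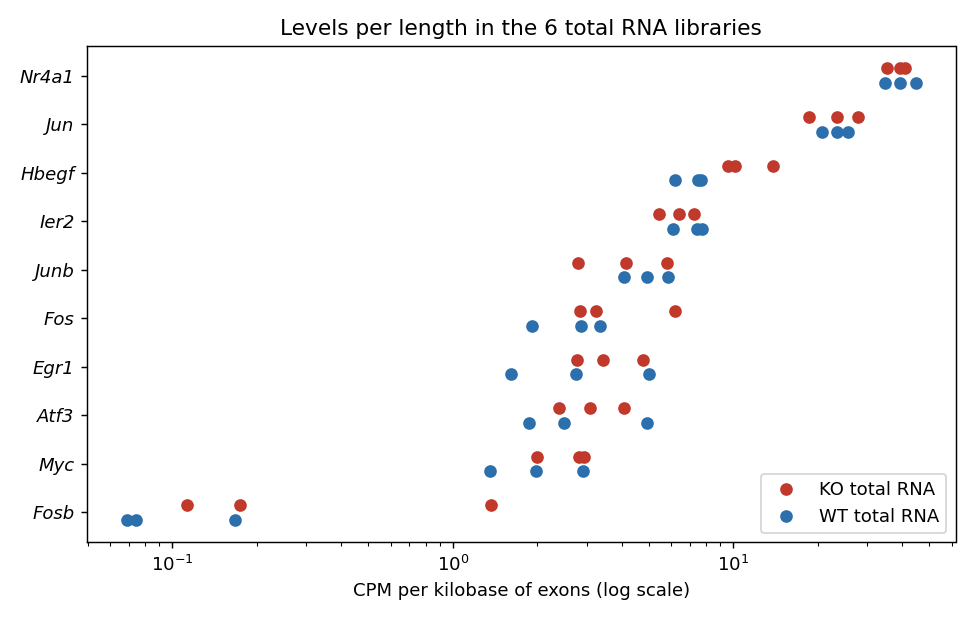
Level per kilobase of exons (x axis, CPM per kilobase, log scale) of each gene (y axis, highest mean at the top) in the 3 KO and 3 WT total RNA libraries, 1 point per library. Nr4a1 and Jun stand above the other genes, with means of 39.2 and 23.3 CPM per kilobase, and Fosb lies lowest, with a KO library at 1.37.

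The genes did not vary across the total RNA libraries as 1 block. On the log2 CPM scale, Pearson's r over the 6 libraries was highest for Fos with Fosb, at 0.94, then for Atf3 with Myc at 0.89 and Junb with Nr4a1 at 0.82. The lowest value was -0.70, for Fosb with Ier2. These are descriptions over 6 libraries of both genotypes, in which the 2 genes of a pair share each library's depth and scaling. Fos and Fosb were both highest in KO total library 1, where on the log2(CPM + 0.5) scale Fos lay 0.91 and Fosb 2.41 above the gene's mean. Egr1 was highest in WT total library 2, at 0.63 above its mean, and Atf3 was highest in WT total library 3, at 0.68 above its mean. Genes whose pattern over these 6 libraries was among the 5 most like the mean of the standardised levels of the 10 genes, of 12924 ranked, included Dnajb4 (r = 0.96), Zfp563 (r = 0.95), Zc3h10 (r = 0.94) and Heph (r = 0.94). With so many genes ranked over 6 libraries, high values of r can arise without any link, and none was tested.

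**Figure D2:**
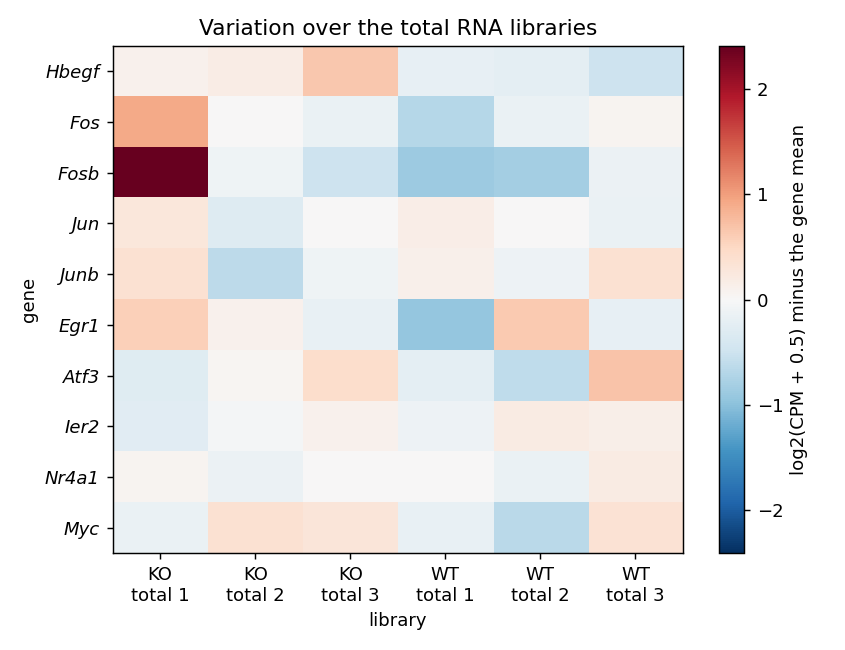
Deviation of each gene (rows) from its own mean in each total RNA library (columns, KO then WT), as log2(CPM + 0.5) minus the gene's mean, in colour. Fosb in KO total library 1 stands out at 2.41, and the same library holds the highest Fos, at 0.91.

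Between KO and WT total RNA, no tested member was called, which does not show that the members were unchanged. The count was 0 of 9 members other than Hbegf by the quasi-likelihood test of edgeR with Benjamini-Hochberg adjustment over 13169 genes, and 0% of all genes passed. At an unadjusted p under 0.05 there was 1 member, Fosb, against 569 genes, and DESeq2 called 0 of the 9 members and 3 genes. The members' log2 differences, KO minus WT, were positive for 5 and negative for 4 (Atf3 turned negative with library size alone, and Jun, near 0, positive with DESeq2 size factors), with a median of 0.03 beside -0.01 over all genes tested. In all 9 the KO and WT libraries overlapped, while 5.06% of all genes had every KO library higher and 4.56% every KO library lower. In bulk tissue, fewer cells of a type and less RNA per cell cannot be told apart.

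Among the AP-1 subunits, Fos had 14.5, 7.61 and 6.69 CPM in KO total RNA, against 4.51, 6.71 and 7.89 CPM in WT total RNA. The high value was KO total library 1, and the other libraries of both genotypes overlapped. The log2 difference of Fos was 0.58 ± 0.33 (SE, edgeR adjusted p = 0.90), and it was 0.17 (adjusted p = 0.94) without that library. Fosb had 8.53, 1.09 and 0.705 CPM in KO total RNA, against 0.430, 0.463 and 1.05 CPM in WT total RNA. The first of these KO libraries held 71 of the 88 Fosb counts in KO total RNA. The log2 difference of Fosb was 2.35 ± 0.89 (SE, edgeR adjusted p = 0.90), and it was 0.47 (adjusted p = 0.92) without KO total library 1, the library with 1397 CPM of Ins2. All 8 islet markers were detected in that library, summing to 2434 CPM, while in the other total RNA libraries 4 to 6 of the 8 were at 0 and the sums were 1.00 to 2.23 CPM. Their part in the Fos and Fosb values was not tested. Jun averaged 74.3 ± 14.5 CPM in KO and 74.2 ± 8.02 CPM in WT total RNA (SD, n = 3 each), a log2 difference of -0.01 ± 0.18 (SE, edgeR adjusted p = 1.00). Junb averaged 9.76 ± 3.46 CPM in KO and 11.4 ± 2.03 CPM in WT total RNA, with a log2 difference of -0.24 ± 0.27 (SE, edgeR adjusted p = 0.90).

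Of the other transcription factors, Nr4a1 had 144, 124 and 138 CPM in KO total RNA, against 138, 122 and 157 CPM in WT total RNA. The 3 libraries of each genotype lay in 1 shared range, and the log2 difference was -0.05 ± 0.16 (SE, edgeR adjusted p = 0.96). Egr1 had 21.4, 15.4 and 12.5 CPM in KO total RNA, against 7.23, 22.4 and 12.4 CPM in WT total RNA. The WT libraries of Egr1 spanned both ends of the KO range, and the log2 difference was 0.22 ± 0.37 (SE, edgeR adjusted p = 0.93). Atf3 averaged 6.87 ± 1.83 CPM in KO and 6.66 ± 3.48 CPM in WT total RNA, and Myc 7.02 ± 1.41 CPM in KO and 5.65 ± 2.11 CPM in WT total RNA (SD, n = 3 each). Ier2 was among the steadiest, at 9.71 ± 1.38 CPM in KO and 10.8 ± 1.29 CPM in WT total RNA, with a log2 difference of -0.16 ± 0.19 (SE, edgeR adjusted p = 0.90).

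Hbegf had 46.3, 48.9 and 67.2 CPM in KO total RNA, against 37.1, 36.3 and 30.1 CPM in WT total RNA. Every KO total library was above every WT total library. The log2 difference was 0.65 ± 0.18 (SE), given without a test because total RNA is part of the value Hbegf was picked for. It ranged over 0.42 to 0.79 under the settings run. Cell type markers also lay to 1 side in total RNA without a call: all 9 fast-fibre markers and all 8 smooth muscle and pericyte markers had positive log2 differences, KO minus WT (medians 0.61 and 0.47), and all 7 tested adipocyte markers and all 8 macrophage markers negative ones (medians -0.75 and -0.17). Summed per library, fast-fibre markers had 227126 to 319689 CPM in KO, against 206200, 218018 and 113783 CPM in WT, the last in WT total library 3. Smooth muscle and pericyte sums were 888 to 1280 CPM in KO and 704 to 849 CPM in WT. Adipocyte sums overlapped, at 346 to 606 CPM in KO and 438 to 1307 CPM in WT, highest in WT total library 2. Macrophage sums overlapped too, at 145 to 227 CPM in KO and 125 to 317 CPM in WT. The part of these markers in the members' values was not tested.

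**Figure D3:**
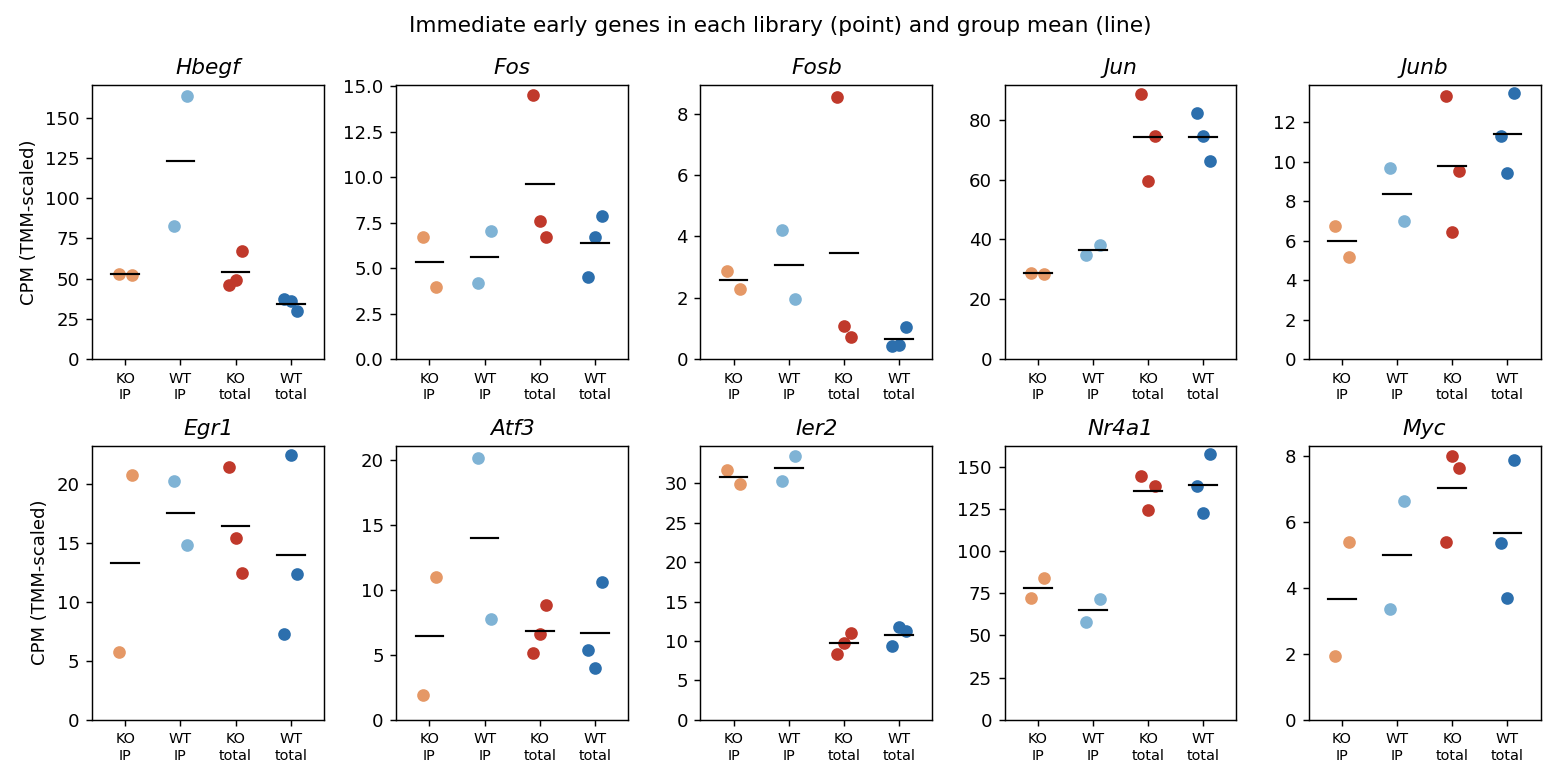
Level of each of the 10 genes (y axis, CPM scaled with TMM factors, each panel from 0) in the KO and WT IP libraries (n = 2 each) and the KO and WT total RNA libraries (n = 3 each), with 1 point per library and a line at the group mean. Ier2 is higher in IP, Jun and Nr4a1 are lower in IP, and Hbegf is highest in the WT IP libraries, at 82.9 and 164 CPM.

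The KO IP serves as the background of the antibody, as far as the label that IMP2 is missing there holds. Between KO and WT IP, no tested member was called, which again does not show a lack of change. The count was 0 of the 8 members that passed the filter on low counts. The test was edgeR with Benjamini-Hochberg adjustment over 10730 genes, and 0% of all genes passed. At an unadjusted p under 0.05 there were 0 of the 8 members, against 1128 genes, while DESeq2 gave 0 of the 8 an adjusted p, so it could call none of them, and it called 85 genes. Fosb did not pass the filter, with 3 and 11 counts in KO IP against 10 and 5 counts in WT IP. The log2 differences of the 8 members were negative for 7 and positive for 1 (Ier2 turned positive with library size alone), with a median of -0.24 beside 0.01 over all genes tested.

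Nr4a1 was the member with a positive difference, with 72.1 and 84.2 CPM in KO IP, against 58.0 and 71.7 CPM in WT IP. Both KO libraries lay above both WT libraries, the upper WT value being just under the lower KO value, and the log2 difference was 0.29 ± 0.25 (SE, edgeR adjusted p = 0.73). Jun had 28.8 and 28.4 CPM in KO IP, against 34.9 and 38.2 CPM in WT IP. The KO libraries of Jun lay below the WT libraries, and the log2 difference was -0.35 ± 0.29 (SE, edgeR adjusted p = 0.72). Junb had 6.73 and 5.19 CPM in KO IP, against 9.67 and 7.01 CPM in WT IP, again without overlap, with a log2 difference of -0.53 ± 0.61 (SE, edgeR adjusted p = 0.82). With 2 libraries against 2, 20.5% of all genes had both KO libraries higher and 20.6% both lower. Ier2 had 31.7 and 29.9 CPM in KO IP, against 30.3 and 33.5 CPM in WT IP, and the groups overlapped.

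The low-count members were too uneven between IP libraries for a difference to be read. Atf3 had 2 and 53 counts in KO IP, or 1.92 and 11.0 CPM, against 48 and 20 counts in WT IP, or 20.2 and 7.79 CPM. Egr1 had 5.77 and 20.8 CPM in KO IP, against 20.2 and 14.8 CPM in WT IP. Within KO both genes were lowest in KO IP library 1, the library with 917462 gene counts, where 3 counts, the limit that a count of 0 allows, equal 2.88 CPM on the same scale (the Fosb value there). The log2 differences were -0.84 ± 0.62 for Atf3 (SE, edgeR adjusted p = 0.68) and -0.22 ± 0.48 for Egr1 (SE, edgeR adjusted p = 0.92). Fos had 7 and 19 counts in KO IP against 10 and 18 in WT IP, and Myc had 2 and 26 counts in KO IP against 8 and 17 in WT IP.

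Hbegf had 52.8 and 52.5 CPM in KO IP, against 82.9 and 164 CPM in WT IP. Both KO libraries were lower than both WT libraries, and the WT libraries were far from each other. The log2 difference was -1.22 ± 0.30 (SE), with no test, and it was -0.65 without WT IP library 2 and -1.63 without WT IP library 1. In the same comparison 8 of 9 fast-fibre markers had negative log2 differences (median -0.44). All 8 fibroblast markers and all 8 endothelial markers had positive ones (medians 0.72 and 0.38). So did all 4 tested red blood cell markers and all 6 tested islet markers (medians 1.31 and 0.28). None of these markers was called, and their part in the Hbegf value was not tested.

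**Figure D4:**
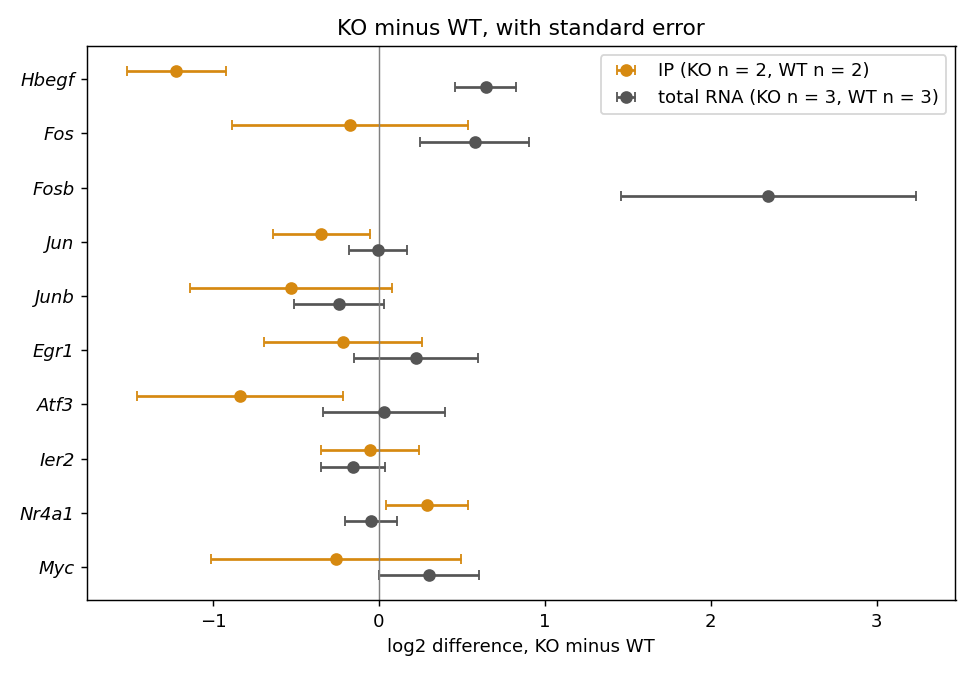
Difference KO minus WT of each gene (x axis, log2, point with its SE) in IP and in total RNA. Hbegf lies on opposite sides of 0, at -1.22 in IP and 0.65 in total RNA, and Fosb is shown for total RNA only, at 2.35 ± 0.89.

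Against total RNA of the same genotype, 3 of the 9 tested members differed in IP: Ier2 was higher, and Jun and Nr4a1 were lower, in both KO and WT. The share of members called was near that of all genes, of which 36.5% passed in KO and 37.0% in WT by edgeR with Benjamini-Hochberg adjustment over 14399 genes, so the count of 3 is not particular to these genes. By direction, 17.7% of all genes were called higher and 18.8% lower in KO, and 17.6% higher and 19.4% lower in WT. The median log2 difference of the 9 members, IP minus total, was -0.68 in KO beside 0.03 over all genes, and -0.17 in WT beside -0.05 over all genes. DESeq2 also called 3 members in each genotype. The IP and total RNA libraries did not overlap for 1 member that was higher and 3 that were lower in KO, against 29.9% and 31.3% of all genes, and for 2 higher and 2 lower in WT, against 27.4% and 32.5%.

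Ier2 had 31.7 and 29.9 CPM in KO IP, against 8.29, 9.79 and 11.0 CPM in KO total RNA. In WT it had 30.3 and 33.5 CPM in IP, against 9.31, 11.7 and 11.3 CPM in total RNA. Every IP library was above every total RNA library in both genotypes. The log2 difference was 1.66 ± 0.23 in KO (SE, edgeR adjusted p = 0.00012) and 1.56 ± 0.22 in WT (SE, edgeR adjusted p = 0.00014). Ier2 was called higher under every setting run.

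Jun, an AP-1 subunit, was lower in IP. It had 28.8 and 28.4 CPM in KO IP, against 88.7, 59.6 and 74.5 CPM in KO total RNA. In WT it had 34.9 and 38.2 CPM in IP, against 82.1, 74.5 and 66.1 CPM in total RNA. No IP library reached a total RNA library, and the log2 difference was -1.38 ± 0.23 in KO (SE, edgeR adjusted p = 0.00040) and -1.02 ± 0.22 in WT (SE, edgeR adjusted p = 0.0022). Jun was called lower under every setting run.

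Nr4a1, the most abundant of the 10 per kilobase in total RNA, had 72.1 and 84.2 CPM in KO IP, against 144, 124 and 138 CPM in KO total RNA. In WT it had 58.0 and 71.7 CPM in IP, against 138, 122 and 157 CPM in total RNA. The groups did not overlap in either genotype. The log2 difference was -0.78 ± 0.20 in KO (SE, edgeR adjusted p = 0.0082) and -1.10 ± 0.20 in WT (SE, edgeR adjusted p = 0.00088). The KO call was lost when library size alone set the scale, at -0.35 (edgeR adjusted p = 0.24), and without KO IP library 1, at -0.69 (edgeR adjusted p = 0.054). With library size alone the median log2 of all genes in KO moved by 0.43, and 74.8% of the calls were higher, against 48.6% with TMM factors.

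Summed cell type markers differed between IP and total RNA as well, most widely for islet and red blood cell genes. The 8 islet markers were all detected in every IP library, summing to 375 and 145 CPM in KO IP and to 44.6 and 349 CPM in WT IP, against 1.00 to 1.85 CPM in WT total RNA and the KO total RNA values given above. The 5 red blood cell markers summed to 483 and 778 CPM in KO IP, against 47.7 to 121 CPM in KO total RNA. Their WT sums overlapped, at 156 and 310 CPM in IP against 25.1 to 159 CPM in total RNA. Satellite cell markers summed to 429 and 468 CPM in KO IP, against 267 to 281 CPM in KO total RNA, and to 448 and 475 CPM in WT IP, against 209 to 266 CPM in WT total RNA. Fast-fibre markers summed to 82105 and 108049 CPM in KO IP, against 227126 to 319689 CPM in KO total RNA. In WT the sums were 112480 and 139664 CPM in IP, against 113783 to 218018 CPM in total RNA, and overlapped. The 8 fibroblast markers summed to 10479 and 11746 CPM in KO IP, against 4005 to 6939 CPM in KO total RNA. Their WT sums overlapped, at 4957 and 6471 CPM in IP against 3135 to 5214 CPM in total RNA. The part of these shifts in the values of Ier2, Jun and Nr4a1 was not tested.

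The 6 other tested members did not pass in either genotype. Junb had log2 differences of -0.79 ± 0.40 in KO (SE, edgeR adjusted p = 0.13) and -0.45 ± 0.36 in WT (SE, edgeR adjusted p = 0.34). Fos had -1.01 ± 0.48 in KO (edgeR adjusted p = 0.11) and -0.18 ± 0.45 in WT (edgeR adjusted p = 0.79). Both genes were thus below 0 in both genotypes without passing the test, and the WT value of Fos was smaller than its SE. The AP-1 genes did not share a direction, as Fosb was above 0 in WT and Jund, described below, was called higher in IP. Fosb had -0.47 ± 0.99 in KO (edgeR adjusted p = 0.74) and 2.20 ± 1.01 in WT (edgeR adjusted p = 0.10), from 27 counts in all of WT total RNA. Without KO total library 1, which enters through the shared estimate of the spread, the WT difference of Fosb passed, at 2.21 (edgeR adjusted p = 0.024). Atf3 had 0.23 ± 0.56 in KO (edgeR adjusted p = 0.78) and 1.06 ± 0.52 in WT (edgeR adjusted p = 0.12), and the WT difference passed without WT total library 3, at 1.56 (edgeR adjusted p = 0.029). Egr1 and Myc had adjusted p of 0.28 to 0.90 by edgeR.

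Hbegf had 52.8 and 52.5 CPM in KO IP, against 46.3 to 67.2 CPM in KO total RNA, a log2 difference of -0.04 ± 0.27 (SE). In WT it had 82.9 and 164 CPM in IP, against 30.1 to 37.1 CPM in total RNA, a log2 difference of 1.84 ± 0.26 (SE). The IP and total RNA values overlapped in KO, while both WT IP libraries lay above the 3 WT total libraries. The WT difference was 1.18 without WT IP library 2 and 2.23 without WT IP library 1.

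**Figure D5:**
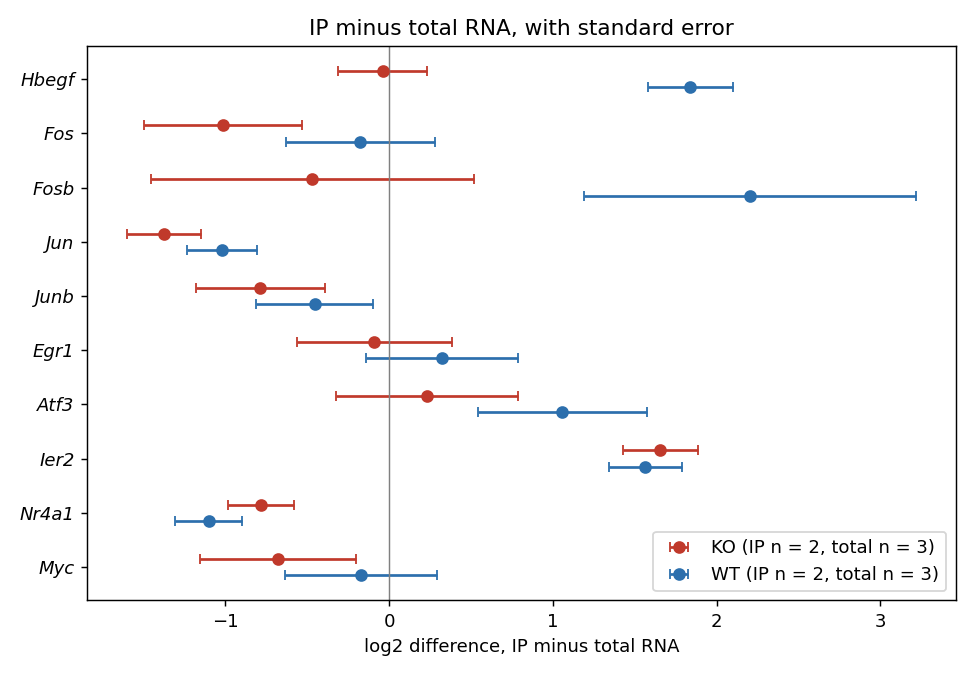
Difference IP minus total RNA of each gene (x axis, log2, point with its SE) in KO and in WT (IP n = 2, total RNA n = 3 in each). Ier2 lies at 1.66 and 1.56, Jun at -1.38 and -1.02, and Hbegf at -0.04 in KO and 1.84 in WT.

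Whether the difference of IP from total RNA depended on genotype was tested as an interaction, (KO IP minus KO total) minus (WT IP minus WT total). The count was 0 of 9 members by edgeR with Benjamini-Hochberg adjustment over 14399 genes, of which 0.00694% passed, that is 1 gene, Prps1l3, which is no member and was named after its value was seen. At an unadjusted p under 0.05 there were 0 members, against 1703 genes, and DESeq2, which gave an adjusted p to 4 of the 9, called 0 of these and 21 genes. The interaction was negative for 7 members and positive for 2 (Jun and Junb turned positive with library size alone), with a median of -0.41 beside 0.02 over all genes. Fosb had the lowest estimate, at -2.67 ± 1.40 (SE, edgeR adjusted p = 0.46), followed by Fos at -0.84 ± 0.67 (edgeR adjusted p = 0.62) and Atf3 at -0.83 ± 0.76 (edgeR adjusted p = 0.67). The Fosb estimate leans on 1 library, as KO total library 1 held 71 of the 88 Fosb counts in KO total RNA. The estimates of Nr4a1, at 0.32 ± 0.28 (edgeR adjusted p = 0.66), and Ier2, at 0.09 ± 0.32 (edgeR adjusted p = 0.93), were the positive ones. The value Hbegf was picked for was -1.88 ± 0.38 (SE), below the estimates of all members except Fosb. It was -1.34 without WT IP library 2 and -2.28 without WT IP library 1.

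By edgeR, the other genes of the response and the routes that lead to it showed the same absence of genotype calls. Of 134 tested genes in 11 lists (other immediate early genes, EGF family, serum response factor, MAP kinase, CREB, MYC partners, integrated stress response, binding proteins of AU-rich mRNAs, heat shock and activity), 0 passed between KO and WT total RNA by edgeR with Benjamini-Hochberg adjustment. At an unadjusted p under 0.05 there were 6, beside 569 of all 13169 genes, and DESeq2 called 0. Between KO and WT IP, 0 of 122 passed by edgeR, 17 had an unadjusted p under 0.05, beside 1128 of all 10730 genes, and DESeq2 called 0 of the 21 to which it gave an adjusted p. For the interaction, 0 of 138 passed by edgeR, 16 had an unadjusted p under 0.05, beside 1703 of all 14399 genes, and DESeq2 called 1 of the 99 to which it gave an adjusted p. Against total RNA, 24 of the 138 were called higher and 34 lower in KO IP, and 24 higher and 30 lower in WT IP. Over all genes, 17.7% were called higher and 18.8% lower in KO, and 17.6% higher and 19.4% lower in WT. The list counts here and in the paragraphs below are to be set against these shares. The median log2 differences were -0.15 in KO and -0.06 in WT.

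Among 16 other tested immediate early transcription factors, 2 were called higher and 5 lower in KO IP over KO total RNA, and 3 higher and 3 lower in WT, with medians of -0.48 in KO and -0.54 in WT. Jund, an AP-1 subunit that is expressed constitutively, was higher in IP, by a log2 of 1.07 ± 0.24 in KO and 1.32 ± 0.24 in WT (SE, edgeR adjusted p = 0.0040 and 0.00084). It thus stood opposite to Jun. Bhlhe40, a transcriptional repressor, was lower, at -1.58 ± 0.22 in KO and -1.12 ± 0.21 in WT, as was Mafk, a small MAF protein, at -1.80 ± 0.30 in KO and -1.36 ± 0.28 in WT. Klf4, a zinc-finger factor, was lower at -1.49 ± 0.36 in KO and -3.75 ± 0.47 in WT (edgeR adjusted p = 0.0053 and 5.3e-05), and its interaction did not pass (edgeR adjusted p = 0.34). Klf4 averaged 1.25 CPM in WT IP, where 3 counts equal 1.39 and 1.18 CPM by library size alone. The size of its WT difference therefore rests on few counts. Of 26 other immediate early genes that encode no transcription factor, 4 were called higher and 8 lower in KO, and 6 higher and 5 lower in WT. Zfp36l1 was higher in IP, at 1.89 ± 0.20 in KO and 1.54 ± 0.20 in WT, while Zfp36, at -2.04 ± 0.35 in KO and -1.20 ± 0.30 in WT, and Zfp36l2, at -2.25 ± 0.35 in KO and -1.38 ± 0.30 in WT, were lower. All of these encode proteins that bind AU-rich elements and promote decay. Mcl1, an anti-apoptotic BCL2 family member, was higher at 1.21 ± 0.18 in KO and 1.15 ± 0.18 in WT.

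In the pathway of the Hbegf product, 13 EGF family ligands, receptors and sheddases were tested, with 2 called higher and 3 lower in KO IP over KO total RNA and 0 higher and 4 lower in WT. Egf, another ligand of the same receptor, was lower in IP, at -1.89 ± 0.29 in KO and -2.78 ± 0.30 in WT (SE, edgeR adjusted p = 0.00024 and 2.1e-05). Adam9, a membrane metalloprotease, was lower at -1.99 ± 0.26 in KO and -1.71 ± 0.25 in WT. Egfr, the receptor, had 1.25 ± 0.25 in KO (edgeR adjusted p = 0.0017) and 0.54 ± 0.26 in WT (edgeR adjusted p = 0.12). In the MAP kinase list of 22 genes, 6 were called higher and 6 lower in KO, and 4 higher and 8 lower in WT. Map2k1, the kinase MEK1, was lower at -2.43 ± 0.22 in KO and -2.52 ± 0.22 in WT, and Hras was higher at 1.41 ± 0.27 in KO and 2.23 ± 0.27 in WT. Of 6 tested genes of serum response factor and its cofactors, Elk3 and Elk4 were called higher and Elk1 lower in both genotypes. Of 8 CREB family genes, 0 were called higher and 2 lower in KO, and 0 higher and 3 lower in WT, Ep300 being lower in both, at -1.28 ± 0.22 in KO and -1.08 ± 0.21 in WT.

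Of 11 tested genes of the integrated stress response, to which Atf3 belongs, 4 were called higher and 0 lower in IP over total RNA in each genotype. Of all genes, 17.7% were called higher in KO and 17.6% in WT, and 36.5% and 37.0% in either direction. The list's median log2 was 0.80 in KO beside 0.03 over all genes, and 0.72 in WT beside -0.05. The genes called were Ddit3, at 2.09 ± 0.21 in KO and 1.69 ± 0.20 in WT, Nupr1, at 2.44 ± 0.25 in KO and 2.21 ± 0.24 in WT, Atf4, at 1.24 ± 0.20 in KO and 1.47 ± 0.20 in WT, and Atf5, at 1.23 ± 0.23 in KO and 1.40 ± 0.23 in WT (SE). Ddit3, Atf4 and Atf5 encode transcription factors of this response, and Nupr1 a stress-induced nuclear protein. Of the 9 tested partners of MYC, 2 were called higher and 1 lower in KO, and 1 higher and 1 lower in WT. Of 13 proteins that bind AU-rich or Myc mRNAs, a list that includes the 3 Zfp36 genes, 2 were called higher and 5 lower in KO, and 2 higher and 4 lower in WT. Of 8 heat shock genes, 1 was called higher and 1 lower in KO, and 2 higher and 0 lower in WT. Of 10 genes of activity and fibre stretch, 0 were called higher and 4 lower in KO, and 2 higher and 3 lower in WT. The muscle regulatory factor gene Myf6 was lower in both genotypes, at -2.59 ± 0.28 in KO and -2.39 ± 0.27 in WT, and Pdk4, a regulator of pyruvate use, at -1.33 ± 0.32 in KO and -1.55 ± 0.32 in WT.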

How the data were processed

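Counts of reads per Ensembl gene were used as deposited by the authors. STAR, HTSeq and the build mm10 / GRCm38 are named per the submitters' processing notes; versions, annotation release and strand setting are not given in the sources used here. The lines for reads in no gene were left out (no feature 8.54% to 11.2%, ambiguous 3.30% to 6.03%, aligned to several places 26.1% to 43.3% of reads). After filterByExpr and TMM scaling, each gene got a two-sided quasi-likelihood F test in edgeR 4.0.16 (R 4.3.3) with no term but the group. P-values were adjusted over all genes by Benjamini-Hochberg, with a threshold of 0.05. Separate fits held the 6 total RNA libraries, the 4 IP libraries and all 10 libraries. The standard error (SE) is the log2 difference over the square root of F. Lengths are exon unions of GENCODE M21. DESeq2 1.42.0 and the other settings are alternatives. The code was tested on simulated data. The genes and the 11 lists, with 10 further lists of cell type markers (229 of 233 symbols found), were chosen with earlier results of these data known. All 10 genes were named, with up to 4 genes of the smallest p per list described and at least 1 CPM; not all of these are printed. Of the 5 genes most like the 10 in total RNA, 1 is not reported here. Intervals of counts were not used, and a floor of 3 counts covers counting error only.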

Additional observations from a re-analysis of the deposited data

Results flagged for a closer look

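Hbegf moved in opposite directions in the 2 kinds of library. Every KO total library was higher than every WT total library, and both KO IP libraries were lower than both WT IP libraries, so that the interaction was -1.88 on the log2 scale. Hbegf was chosen for this value, and the difference was not tested. Fast-fibre markers had the same signs, with all 9 positive in KO minus WT total RNA, 8 of 9 negative in KO minus WT IP and all 9 negative in the interaction (median -1.02, none called); their part in the Hbegf value was not tested.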

How the results depend on the processing

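The number of member differences called, 6 of 44 tested over the 5 comparisons, was 5 with library size alone, 8 without a filter and 8 with a replicate block, and 6 with the DESeq2 size factors and the DESeq2 test, which gave no adjusted p to 8 members in the IP comparison and 5 in the interaction. Counts of all genes called moved more. For KO against WT total RNA the count was 3 with DESeq2 and 64 without a filter, against 0. For KO against WT IP it was 1 with library size alone, 85 with DESeq2, 103 without a filter and 13 to 146 with 1 library left out, against 0. For KO IP against KO total RNA it was 2148 (without KO IP library 2) to 5706 (without WT total library 3) with 1 library left out, against 5251. For the interaction it was 0 with library size alone, 21 with DESeq2, 263 without a filter, 0 without KO total library 1 and WT total library 2, and 0 to 1 with 1 library left out, against 1. The cause was not tested. Nothing in the labels says that replicate numbers pair the libraries, and the check of pairing was not met: deviations of same-numbered libraries correlated at 0.09, -0.11 and -0.30 in total RNA and -0.05 in IP, and IP with total RNA at 0.13 and 0.15 in KO and 0.11 and 0.09 in WT, and 1 of 6 total RNA libraries correlated best with its own number. With the replicate block the count was 28 for KO against WT IP and 147 for the interaction, Hbegf in KO IP minus total was 0.14, Myc in WT IP minus total was 0.14, and the WT differences of Fosb (2.69) and Atf3 (1.48) passed. Without a filter the WT differences of both genes passed too, at 2.16 for Fosb and 1.01 for Atf3.

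Library size alone shifted the median difference over all tested genes by -0.22 for KO minus WT total RNA, 0.14 for KO minus WT IP, 0.43 for KO IP minus total and 0.37 for the interaction. It turned the sign of Atf3 in total RNA (-0.25), Ier2 in KO minus WT IP (0.094), Egr1 (0.32) and Hbegf (0.41) in KO IP minus total, and Jun (0.023) and Junb (0.083) in the interaction. Jun in total RNA, near 0, was 0.0031 with DESeq2 size factors and 0.0044 with the DESeq2 test. Without KO total library 1 and WT total library 2, the signs turned for Atf3 (-0.056) and Ier2 (0.014) in total RNA, Egr1 (0.14) and Fosb (1.44) in KO IP minus total, and Junb (0.080) and Ier2 (-0.075) in the interaction. With 1 library left out, signs turned within these ranges. In KO minus WT total RNA they were -0.21 to 0.56 for Atf3, -0.092 to 0.75 for Egr1, -0.15 to 0.13 for Jun and -0.12 to 0.063 for Nr4a1. In KO minus WT IP they were -1.57 to 0.24 for Egr1, -0.51 to 0.27 for Fos, -0.12 to 0.015 for Ier2 and -1.34 to 0.30 for Myc. In KO IP minus total they were -1.84 to 0.67 for Atf3, -1.52 to 0.33 for Egr1, -0.95 to 1.43 for Fosb and -0.16 to 0.15 for Hbegf. In WT IP minus total they were -0.68 to 0.12 for Fos and -0.83 to 0.21 for Myc. In the interaction they were -2.89 to 0.025 for Atf3, -1.83 to 0.022 for Egr1, -0.0085 to 0.19 for Ier2 and -1.69 to 0.038 for Myc. None of these differences was called. Where leaving out a library left 1 IP library in a group, its spread was taken from the other groups. Fos, Fosb and Junb had 25 or fewer counts in every IP library, and Atf3 and Myc had 2 in KO IP library 1, which limits what the IP comparisons can show.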
